A study of Mus musculus with 9 samples.

Results

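The genes described here make and load the peptide-presenting molecules of the major histocompatibility complex (MHC), and were measured in mouse embryonic stem cells with and without the histone deacetylase gene Sirt6. They were chosen by symbol: every H2 gene, B2m, the Tap, Tapbp and Cd1d genes, Psmb8, Psmb9, Psmb10, Psme1, Psme2, Erap1, Cd74, the transactivator genes Nlrc5 and Ciita, and the RFX genes Rfx5, Rfxap and Rfxank. The rule found 63 of the 23366 genes in the count table. No threshold on a value entered the rule, but the set was proposed with the difference between knockout and wild type in view. Its fold changes are therefore given as a description, and the calls attached to them are no independent evidence.

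Of the 9 RNA samples of the series, 3 are wild type, 3 are labelled SIRT6-Knock Out and 3 are wild type deprived of glucose, which were not analysed here. Wild-type and knockout cells carried the same labels otherwise: 129 SvJae F1 strain, passage 21, and medium with 10% fetal bovine serum and leukaemia inhibitory factor. The labels do not say whether a group is 1 clone or whether its replicates were separate cultures, so errors and p-values measure no more than the variation among these libraries, possibly a technical one. Total counts ran from 20107037 to 29267115 per library. Sirt6 had 348, 341 and 342 counts in wild type against 12, 6 and 6 in the knockout. All 8 stem cell markers examined were present in both groups, 3 of them called higher and 3 lower in the knockout; the lowest mean was that of Klf4 in the knockout, at 70.2 CPM (counts per 1000000, scaled between libraries by the trimmed mean of M values). The groups also differed in RNA from the sex chromosomes: Y-linked Kdm5d went from 0 counts over wild type to 191 over the knockout, and X-linked Xist from 38.2 to 4.06 CPM. Y-linked Ddx3y and Eif2s3y were counted in every wild-type library, and went from 7.74 to 91.5 CPM and from 24.8 to 91.1 CPM. The part of this difference in the values below was not tested.

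MHC class I molecules pair a heavy chain with beta-2-microglobulin and show peptides from inside the cell. The peptides are cut by the proteasome, in which inducible subunits can replace constitutive ones, pumped into the endoplasmic reticulum by the TAP transporter and loaded with the help of tapasin. Class II molecules are built from alpha and beta chains, travel with the invariant chain CD74 and show peptides from outside; they are normally the mark of professional antigen-presenting cells. NLRC5 is the transactivator of class I genes and CIITA that of class II genes, and both act with the RFX complex. Embryonic stem cells are known for low class I levels.

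Many of these genes had few counts in wild-type cells and more in the knockout. Of the 63 members, 13 had no count in any library, 10 had too few counts to be tested and 40 were tested. A gene was called where the quasi-likelihood test of edgeR, run over 14988 genes, gave a Benjamini-Hochberg adjusted p below 0.05. Of the 40, 27 were called higher and 5 lower, and 8 were not called. Over all tested genes 55.7% were called, 27.9% higher and 27.8% lower. In 31 of the 40 the groups did not overlap in CPM, as in 63.2% of all tested genes. Among all tested genes the median log2 fold change was 0.01, against 1.47 for the 40 members. The filter shapes those figures, since 13 of the 40 members cleared it in all 3 knockout libraries but not in all 3 wild-type libraries. Such members needed knockout libraries over the filter cutoff to be tested. Among them Psmb8, H2-Aa and H2-Q2 lay below it in every wild-type library and could enter only by being high in the knockout.

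**Figure D1:**
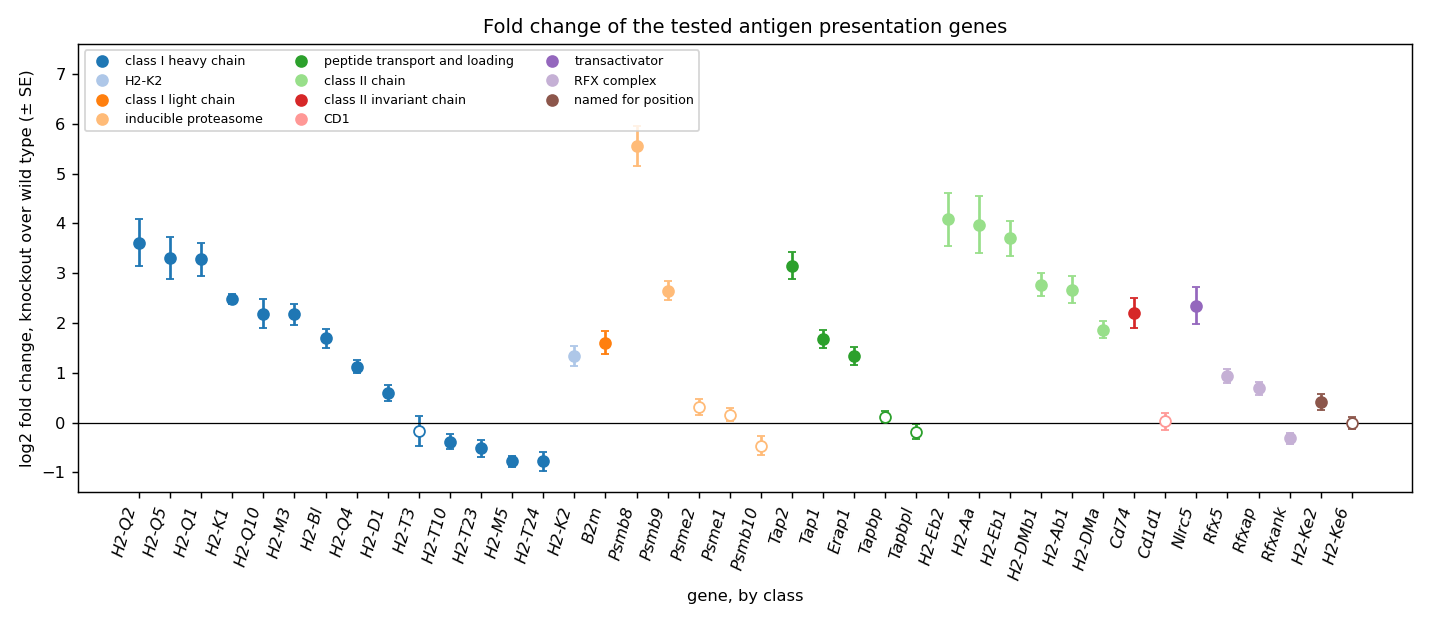
Log2 fold change (knockout over wild type, ± SE, 3 libraries a group) of the 40 tested members, coloured by class, with filled points for genes called in the fit over all genes and open points for the others. The class II chains sat between 1.86 and 4.08, whereas the class I heavy chains spread from -0.78 to 3.61.

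The upstream sequences of the members on which the description turns are shown first, because many class I promoters share an arrangement of short motifs: an NF-kB site, an interferon-stimulated response element (ISRE), the X2 box bound by CREB and ATF1, and the Y box bound by NF-Y. Each line gives the 200 bases before the start of a gene, from RefSeq on GRCm38.p6, written 5′ to 3′. Capitals mark every match, on either strand, to the ISRE core TTTCNNTT, the X2 core TGACG, the Y box CCAAT or the NF-kB consensus. In the sequences shown no match overlapped one to another motif. A match is a run of letters and not a shown binding site, and the deposited counts were made on another build, mm9. The classical genes H2-K1 and H2-D1, the H2-Q4 gene and B2m, all called higher in the knockout, carried all 4 motifs in this window. Their order was not the same. The X2 core of H2-Q4, at bases -73 to -69 from the start, lay between Y boxes. In H2-K1, H2-D1 and B2m it lay before any Y box, and in B2m the ISRE core came before the NF-kB match:

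H2-K1, GRCm38.p6 chr17:34000348-34000547, minus strand: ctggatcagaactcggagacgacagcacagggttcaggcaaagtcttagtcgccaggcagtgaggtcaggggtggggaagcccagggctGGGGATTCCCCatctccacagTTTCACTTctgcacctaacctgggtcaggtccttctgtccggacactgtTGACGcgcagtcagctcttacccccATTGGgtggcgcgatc

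H2-D1, GRCm38.p6 chr17:35262894-35263093, plus strand: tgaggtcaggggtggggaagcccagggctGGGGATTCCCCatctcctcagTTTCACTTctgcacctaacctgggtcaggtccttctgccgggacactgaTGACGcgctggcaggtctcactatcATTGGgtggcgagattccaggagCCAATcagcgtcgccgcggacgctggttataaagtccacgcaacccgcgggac

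H2-Q4, GRCm38.p6 chr17:35379417-35379616, plus strand: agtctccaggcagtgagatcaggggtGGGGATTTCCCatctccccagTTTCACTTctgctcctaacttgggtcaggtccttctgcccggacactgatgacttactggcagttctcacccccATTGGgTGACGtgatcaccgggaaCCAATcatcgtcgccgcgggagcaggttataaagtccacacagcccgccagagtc

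B2m, GRCm38.p6 chr2:122147487-122147686, plus strand: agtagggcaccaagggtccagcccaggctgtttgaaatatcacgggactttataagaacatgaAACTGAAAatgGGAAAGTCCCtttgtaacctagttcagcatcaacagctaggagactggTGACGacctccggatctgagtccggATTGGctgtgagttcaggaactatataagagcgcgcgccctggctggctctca

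Tap1, which was called higher too, shares its start region with Psmb9, which is read in the opposite direction; their 300-base windows overlapped by 275 bases. In the 200 bases shown Tap1 had an X2 core, while the class II gene H2-Eb1, also higher, had only Y boxes:

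Tap1, GRCm38.p6 chr17:34187356-34187555, plus strand: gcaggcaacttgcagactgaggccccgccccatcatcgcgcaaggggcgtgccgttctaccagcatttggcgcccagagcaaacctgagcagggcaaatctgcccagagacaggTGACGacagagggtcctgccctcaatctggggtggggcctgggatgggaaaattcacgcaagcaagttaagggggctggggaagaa

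H2-Eb1, GRCm38.p6 chr17:34305667-34305866, plus strand: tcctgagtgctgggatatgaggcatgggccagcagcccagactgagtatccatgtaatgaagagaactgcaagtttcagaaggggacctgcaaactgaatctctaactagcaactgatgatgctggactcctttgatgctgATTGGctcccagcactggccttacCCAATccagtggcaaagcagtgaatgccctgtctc

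The class I genes H2-M5 and H2-T23 were called lower in the knockout. H2-M5 had none of the 4 motifs, and H2-T23 had ISRE cores and a Y box:

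H2-M5, GRCm38.p6 chr17:36989534-36989733, minus strand: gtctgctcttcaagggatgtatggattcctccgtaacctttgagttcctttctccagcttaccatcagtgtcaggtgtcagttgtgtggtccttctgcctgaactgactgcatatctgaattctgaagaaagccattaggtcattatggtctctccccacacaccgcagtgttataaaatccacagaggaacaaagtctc

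H2-T23, GRCm38.p6 chr17:36032702-36032901, minus strand: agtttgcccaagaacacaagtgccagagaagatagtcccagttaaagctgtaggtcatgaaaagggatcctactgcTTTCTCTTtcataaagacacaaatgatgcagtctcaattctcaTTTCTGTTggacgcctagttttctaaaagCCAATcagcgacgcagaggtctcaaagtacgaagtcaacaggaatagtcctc

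A RefSeq window, running from 250 bases before to 50 after the start, was found for 43 of the 63 members. In all 6 class I heavy chain genes that were called higher and had a window, an ISRE core was present, and the same core was found in 24.2% of all 27025 windows. It was also in 8 of the 16 windows of the other class I heavy chain genes, among them H2-T3, which was not called, and H2-T23, which was called lower. Of the genes of these 16 windows only H2-T3, H2-T23 and H2-M5 had enough counts to be tested. The NF-kB consensus was present in 4 of those 6 genes, against 8.18% of all windows. The X2 core was in 4 of the 6 and in 21% of all windows, and the Y box in 5 of the 6 and in 37.9% of all windows. The other 16 class I windows held these motifs in 4, 7 and 14 cases. Of the class II chain genes called higher, 5 had a window: 4 held a Y box, 2 an ISRE core, 1 the NF-kB consensus and 1 an X2 core. Among members called higher, Psmb8 and H2-DMa held none of the 4 motifs, as did H2-M5, which was called lower. H2-Q7 and H2-T22, which had no count, held all 4. The H2 genes are close copies of each other, so these windows are not independent of one another.

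Among the classical class I heavy chains, which present peptides to cytotoxic T cells, H2-K1 stood apart. Its level was 8.87, 9.50 and 8.69 CPM in the wild-type libraries and 54.4, 47.7 and 48.8 CPM in the knockout libraries. The groups did not overlap, and the mean went from 9.02 ± 0.424 to 50.3 ± 3.60 CPM (SD, n = 3), a 5.58-fold difference (log2 2.48 ± 0.11, SE). H2-D1, the other classical gene, was at 2.68, 2.80 and 2.51 CPM in wild type and at 3.84, 3.73 and 4.56 CPM in the knockout. These groups did not overlap either, but the difference was 1.51-fold (log2 0.59 ± 0.16). H2-K1 alone made up 14.3% ± 0.608 of the summed class I heavy chain CPM in wild type (SD, n = 3) and 44.7% ± 0.50 in the knockout.

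That sum over all 31 class I heavy chain genes was 64.4, 63.6 and 61.7 CPM in wild type and 120.1, 107 and 109.9 CPM in the knockout, 1.78 times as high. Without H2-K1 the sum was 54.2 ± 1.31 CPM in wild type and 62.1 ± 3.26 CPM in the knockout (SD, n = 3), 1.15 times as high. The heavy chain genes differed in both directions. Of the 14 tested heavy chain genes, 9 were called higher and 4 lower, and H2-T3 was not called (log2 -0.17 ± 0.30). Over all tested genes 27.9% were called higher and 27.8% lower. The 14 include H2-Q5, H2-Bl and H2-T10, which are annotated as transcribed pseudogenes, while the pseudogene H2-K2 was left out.

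Of the H2-Q genes, a non-classical series beside H2-D1, 5 were tested and all 5 were called higher, as were 27.9% of all tested genes. H2-Q1, H2-Q2, H2-Q5 and H2-Q10 cleared the filter in all libraries of the knockout only, which leaves H2-Q4. H2-Q4 was the most abundant, at 7.94, 7.87 and 7.88 CPM in wild type and 20.2, 16.1 and 15.2 CPM in the knockout (log2 1.12 ± 0.13). H2-Q1, H2-Q2 and H2-Q5 were nearly silent in wild type, with 4, 3 and 6 counts for H2-Q1 in the 3 libraries, against 61, 33 and 35 counts in the knockout. Their log2 fold changes were 3.27 ± 0.33, 3.61 ± 0.47 and 3.30 ± 0.43, and that of H2-Q10 was 2.19 ± 0.28. Single libraries weighed on these values: H2-Q2 went to 4.67 without wild-type replicate 1 and H2-Q5 to 4.31 without wild-type replicate 2. The exact 95% counting interval of the H2-Q2 ratio ran from 6.67 to 27.1. H2-Q5 is annotated as a transcribed pseudogene, and H2-Q6, H2-Q7, H2-Q8 and H2-Q9 had no count in any library. H2-Q genes are near-identical to each other, the sources used here do not give the rule for reads that fit several genes, and a count of 0 for such a copy does not show that it was silent.

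In the H2-T and H2-M series the directions were split. H2-M3, which presents formylated peptides, was higher (log2 2.17 ± 0.21), with 19, 24 and 21 counts in wild type against 117, 104 and 68 in the knockout. H2-Bl, annotated as a transcribed pseudogene, was higher too (log2 1.69 ± 0.19), as was the pseudogene H2-K2 near H2-K1 (1.34 ± 0.20). H2-M5 went the other way, from 25.8, 25.8 and 25.9 CPM in wild type to 14.8, 13.6 and 16.9 CPM in the knockout. The groups lay apart, and the difference was 1.71-fold (log2 -0.78 ± 0.11).

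H2-T24 was at 6.37, 4.81 and 4.79 CPM in wild type and 3.49, 3.48 and 2.20 CPM in the knockout, without overlap (log2 -0.78 ± 0.20). It had the lowest fold change of the tested members. H2-T23, which encodes Qa-1, the ligand of the CD94/NKG2A receptor of natural killer cells, was at -0.51 ± 0.17 and H2-T10, annotated as a pseudogene, at -0.39 ± 0.15 on the log2 scale. Neither call held under every setting. With total counts as the scaling H2-T23 and H2-T10 were no longer called (log2 -0.39 and -0.26), and leaving out wild-type replicate 1, among other single libraries, ended both as well (log2 -0.49 and -0.35).

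Beta-2-microglobulin, the light chain of every class I molecule, was higher as well. B2m was at 4.99, 3.89 and 6.41 CPM in wild type and 10.9, 16.5 and 19.5 CPM in the knockout. The libraries varied within both groups, but the lowest knockout library stood above the highest wild-type library, and the difference was 3.03-fold (log2 1.60 ± 0.23). Per kilobase of merged exon length, mean levels in the knockout were 18.2 CPM for B2m, 17.1 CPM for H2-K1 and 1.57 CPM for H2-D1. In wild type they were 5.93 CPM per kilobase for B2m, 3.07 for H2-K1, 3.04 for H2-Q4 and 1.03 for H2-D1, while H2-M5 was at 9.60.

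**Figure D2:**
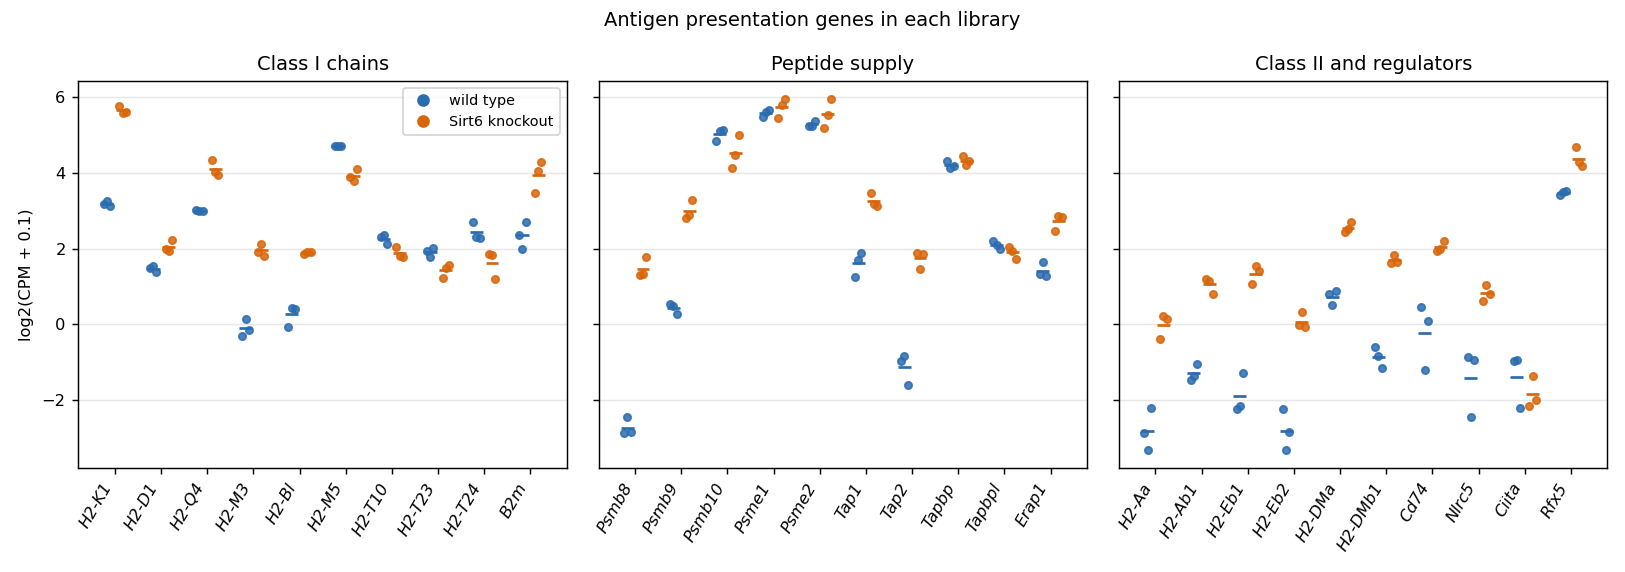
Level of 30 members in each library, as log2(CPM + 0.1), with points for single libraries (blue wild type, orange Sirt6 knockout) and bars for the mean of the 3 plotted values. H2-K1, Psmb8, Tap2 and the class II chains lay apart between the groups, whereas Tapbp, Psme1, Psme2 and Psmb10 overlapped.

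Peptide supply showed a split between subunits of the proteasome. PSMB8, PSMB9 and PSMB10 are the inducible catalytic subunits that replace PSMB5, PSMB6 and PSMB7. Psmb8 had 1, 2 and 1 counts in wild type against 75, 59 and 67 in the knockout. Over the group sums of 4 and 201 counts the ratio was 50.6, with an exact 95% interval of 19.4 to 187 for counting error alone, and the fitted log2 fold change of 5.55 ± 0.39 was the highest of the tested members. Psmb9 was at 1.34, 1.30 and 1.12 CPM in wild type and 6.96, 7.33 and 9.56 CPM in the knockout, 6.28-fold higher with no overlap (log2 2.65 ± 0.19).

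Psmb10, whose gene lies on chromosome 8 and not beside the other inducible subunits, did not follow. It was at 28.4, 34.5 and 35.0 CPM in wild type and 17.4, 21.99 and 32.0 CPM in the knockout, and the groups overlapped. Its log2 value of -0.46 ± 0.19 was not called, though it was called lower in 6 of 14 alternative settings (range -0.75 to -0.27), among them the one without knockout replicate 3 (-0.75). Psme1, a gene of the proteasome activator PA28, was at 44.7, 48.6 and 50.6 CPM in wild type and 43.2, 55.5 and 62.0 CPM in the knockout (log2 0.16 ± 0.13). Its partner Psme2 was at 37.5, 37.5 and 40.9 CPM in wild type and 36.4, 46.1 and 61.6 CPM in the knockout (log2 0.31 ± 0.16). Both overlapped between the groups, with knockout replicate 1 the lowest library, and neither was called. Without knockout replicate 1 both were called higher (0.30 and 0.48).

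Set against the constitutive subunits, Psmb8 and Psmb9 stayed a small part. Psmb8 per kilobase was 0.0138% of Psmb5 in wild type and 0.692% in the knockout, and Psmb9 was 0.227% and 1.51% of Psmb6. Psmb10 was 23.3% ± 1.31 of Psmb7 in wild type (SD, n = 3) and 15.2% ± 1.14 in the knockout, so that this pair moved the opposite way. Psmb5, Psmb6 and Psmb7 were themselves at 0.04, -0.06 and 0.15 on the log2 scale. None of 6 genes of the constitutive proteasome, its activators and assembly passed the test, where 55.7% of all tested genes did.

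**Figure D3:**
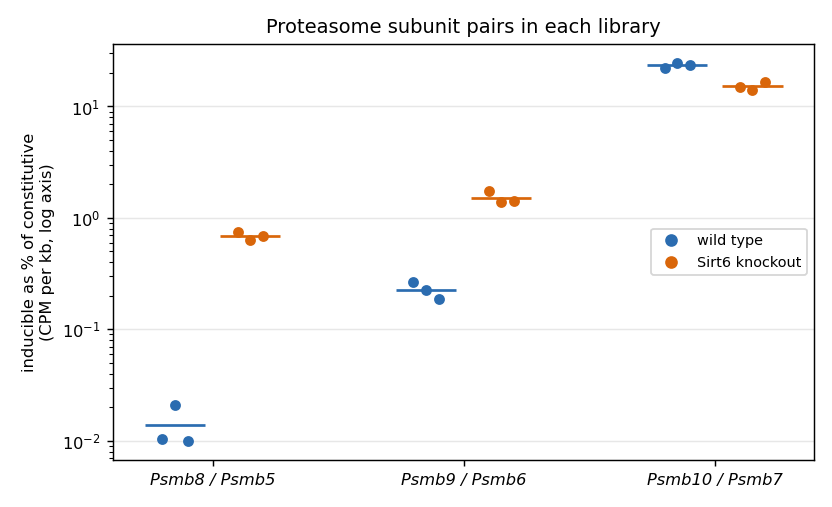
Level per kilobase of each inducible proteasome subunit as a percentage of its constitutive counterpart (log axis), with a point for each library and a bar for the mean of 3. Psmb8 and Psmb9 stayed under 2% of their counterparts in every library, and Psmb10 lay between 14.1% and 24.6%.

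Both chains of the peptide transporter were higher. Tap1 was at 2.27, 3.14 and 3.59 CPM in wild type and 10.9, 9.01 and 8.66 CPM in the knockout, 3.19-fold higher (log2 1.67 ± 0.18). Tap2 had 11, 11 and 6 counts in wild type against 115, 65 and 71 in the knockout, 8.87-fold higher (log2 3.15 ± 0.27). Neither gene overlapped between the groups. Erap1, the aminopeptidase that trims peptides in the endoplasmic reticulum, was at 2.42, 3.01 and 2.32 CPM in wild type and 5.45, 7.17 and 7.06 CPM in the knockout (log2 1.34 ± 0.17).

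Tapasin and its relative were not called. Tapbp, which encodes tapasin, was at 19.6, 17.4 and 18.0 CPM in wild type and 21.7, 18.3 and 19.7 CPM in the knockout. The groups overlapped and the log2 value was 0.12 ± 0.11. Its relative Tapbpl was at -0.18 ± 0.15. Per kilobase Tapbp was at 5.05 CPM in wild type, above Tap1 at 0.548 and Tap2 at 0.0972.

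Of the 10 class II chain genes 6 could be tested, and all 6 were called higher, as were 27.9% of all tested genes. The alpha and beta chains of H2-A and H2-E had few counts in wild type. H2-Aa had 1, 0 and 3 counts in wild type against 21, 26 and 20 in the knockout (log2 3.97 ± 0.57), and its partner H2-Ab1 had 7, 7 and 10 counts against 70, 52 and 33 (log2 2.67 ± 0.27). H2-Eb1 had 3, 3 and 8 counts in wild type against 63, 69 and 51 in the knockout (log2 3.70 ± 0.35), and H2-Eb2 was at 4.08 ± 0.53. In each of these genes the groups lay apart, but the wild-type values rest on few counts. The exact 95% counting interval of the ratio ran from 6.28 to 63.6 for H2-Aa and from 6.87 to 69.2 for H2-Eb2. The log2 values moved with single libraries, to 5.28 for H2-Eb2 without wild-type replicate 1 and to 5.18 for H2-Aa and 4.30 for H2-Eb1 without wild-type replicate 3.

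H2-DM chains catalyse peptide exchange on class II molecules. H2-DMa had the highest CPM of the class II chain genes, not corrected for length. It was at 1.64, 1.34 and 1.74 CPM in wild type and 5.29, 5.65 and 6.36 CPM in the knockout (log2 1.86 ± 0.17). H2-DMb1 was at 2.76 ± 0.23 on the log2 scale. H2-DMb2 had 0 counts in every wild-type library and 4, 0 and 3 in the knockout libraries, and H2-Ob had 0 in every wild-type library and 0, 1 and 4 in the knockout libraries. Both overlapped between the groups, and the exact 95% counting interval of the ratio began at 1.45 for H2-DMb2 and at 0.922 for H2-Ob. H2-Oa, which like H2-Ob encodes a chain of the H2-O molecule that restrains H2-DM, had 7 counts in wild type against 34 in the knockout (ratio 4.89, exact 95% counting interval 2.13 to 13.1), and its groups overlapped in CPM. The pseudogene H2-Ea-ps had no count.

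Cd74, the invariant chain gene, had 34, 8 and 25 counts in wild type against 118, 95 and 90 in the knockout. Wild-type replicate 2 was low, and the groups did not overlap (log2 2.20 ± 0.30). The lipid-presenting Cd1d1 was at 3.43, 3.10 and 3.86 CPM in wild type and 3.09, 3.44 and 4.16 CPM in the knockout, with a log2 value of 0.02 ± 0.17. Its near copy Cd1d2, annotated as a transcribed pseudogene, had 4 counts in wild type against 24 in the knockout (ratio 6.04, interval 2.07 to 23.9).

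The tested class II chains were called in 1 direction and the class I heavy chains in both. The summed class II level was 2.76, 2.22 and 3.17 CPM in wild type and 14.3, 16.8 and 16.5 CPM in the knockout, a ratio of 5.85 against 1.78 for class I. The median log2 fold change was 3.23 over the 6 tested class II chains and 1.41 over the 14 tested class I heavy chains. The difference between the classes was not tested, since both were chosen from this contrast, and 5 of the 6 class II chains cleared the filter in all libraries of the knockout only. Per kilobase, mean knockout levels of the tested class II chains ran from 0.239 CPM for H2-Aa to 1.86 CPM for H2-DMb1, with H2-Ab1 at 0.777, H2-Eb1 at 1.26 and H2-DMa at 1.67. Those of the tested class I heavy chains ran from 0.225 CPM for H2-T3 to 17.1 CPM for H2-K1, with H2-Q2 at 0.745 and H2-D1 at 1.57, so the ranges overlapped.

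The transactivators were both scarce. Nlrc5 had 12, 2 and 11 counts in wild type against 46, 48 and 33 in the knockout, without overlap, a 5.10-fold difference (log2 2.35 ± 0.38). Ciita had 11, 10 and 3 counts in wild type against 4, 7 and 3 in the knockout and was not tested. Its ratio was 0.587, with an exact 95% interval of 0.281 to 1.18 that covers counting error only.

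In the RFX complex, Rfx5 was at 10.58, 11.2 and 11.3 CPM in wild type and 25.3, 19.4 and 17.9 CPM in the knockout (log2 0.93 ± 0.14). Rfxap was at 5.67, 6.32 and 5.56 CPM in wild type and 8.88, 8.84 and 10.7 CPM in the knockout (log2 0.69 ± 0.13). Rfxank was lower, at 16.0, 16.99 and 15.3 CPM against 13.7, 12.1 and 13.0 CPM (log2 -0.32 ± 0.11), with no overlap in any of the 3 genes. The Rfxank call ended with total counts as the scaling (log2 -0.19) and without wild-type replicate 1, wild-type replicate 2 or knockout replicate 2 (-0.31, -0.28 and -0.27).

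The rule also takes in H2-Ke2, the prefoldin subunit gene Pfdn6, and H2-Ke6, a hydroxysteroid dehydrogenase gene, which are named for their place beside H2-K and present no peptides. H2-Ke6 was at 15.6, 13.5 and 16.3 CPM in wild type and 13.6, 14.6 and 17.2 CPM in the knockout (log2 -0.01 ± 0.13). H2-Ke2 was called at 0.42 ± 0.16 although its groups overlapped, at 69.1, 75.2 and 85.6 CPM in wild type and 77.2, 106 and 125 CPM in the knockout. Leaving out wild-type replicate 1, wild-type replicate 2, knockout replicate 2 or knockout replicate 3 ended that call (log2 0.36, 0.40, 0.40 and 0.24).

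Most members are neighbours on chromosome 17, which held 47 of the 63, and their order there was compared with their direction. From Tapbp to H2-M3, 28 members were tested, of which 21 were called higher and 4 lower. In the same stretch 105 other genes were tested, of which 20 were called higher and 35 lower, with a median log2 fold change of -0.09. On the rest of chromosome 17, 153 of 625 genes were called higher and 169 lower, with a median of -0.02.

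In the class II region from H2-Oa to H2-Eb2 the 10 tested members, H2-DMa, H2-DMb1, Psmb9, Tap1, Psmb8, Tap2, H2-Ab1, H2-Aa, H2-Eb1 and H2-Eb2, were called higher. Of these, 7 cleared the filter in all libraries of the knockout only, so their entry into the test leaned on the knockout. This leaves H2-DMa, Psmb9 and Tap1. The only other gene tested there, Brd2, which encodes a bromodomain protein, was called lower (log2 -0.67 ± 0.11). Beyond H2-Eb2 the next tested genes were higher as well, with the butyrophilin-like genes Btnl1 at 3.18, Btnl4 at 1.72, Btnl5 at 2.12 and Btnl6 at 1.80 on the log2 scale, up to Notch4 (-1.44). These neighbours were picked after their values were seen. The tested genes from H2-D1 to H2-Q10 were higher too, and the H2-T genes H2-T24 and H2-T23 beyond it were lower. In that stretch H2-Q1, H2-Q2, H2-Q5 and H2-Q10 cleared the filter in all libraries of the knockout only, which leaves H2-D1 and H2-Q4. Members elsewhere in the genome were higher too, among them B2m on chromosome 2, Erap1 on 13, Nlrc5 on 8 and Cd74 on 18.

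**Figure D4:**
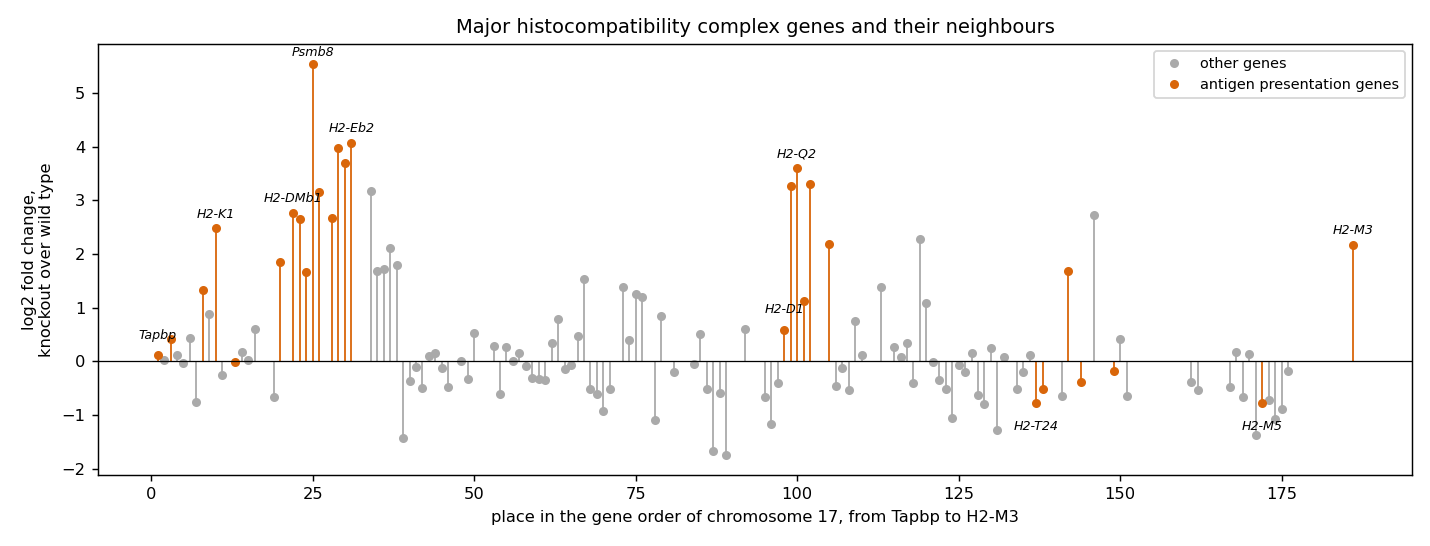
Log2 fold change (knockout over wild type) of the tested genes in their order on chromosome 17 from Tapbp to H2-M3, with antigen presentation genes in orange and the 105 other genes in grey. The orange run from H2-DMa to H2-Eb2 lay between 1.67 and 5.55, and grey genes lay on both sides of 0.

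Genes that feed this pathway moved in both directions. Of 22 tested genes of interferon and NF-kB input and of MHC transactivation, 8 rose and 9 fell, where 27.9% of all genes rose and 27.8% fell. Irf8, an interferon regulatory factor of the myeloid and lymphoid lineages, rose 21.6-fold from 0.300 ± 0.0330 to 6.57 CPM (log2 4.43 ± 0.20). It had 23 counts over wild type and lay below the filter cutoff of 0.383 CPM in every wild-type library. Irf8 could therefore enter the test only by being high in the knockout. Nfya, a subunit of the Y-box factor, fell (log2 -1.53 ± 0.12, adjusted p = 2.72e-06), as did the Polycomb methyltransferase gene Ezh2 (-1.29 ± 0.11, adjusted p = 3.56e-06) and the NF-kB gene Nfkb1 (-0.96 ± 0.10, adjusted p = 1.97e-05; all edgeR). Among genes outside the naming rule, Irf1, which drives class I genes after interferon, was at 0.56, Stat2 at 0.75 and the interferon-gamma receptor gene Ifngr1 at 0.72 on the log2 scale, while the NF-kB gene Rela was at -0.66.

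The general folding and trimming factors mostly fell: of 10 genes 1 rose and 7 fell. Of all tested genes 27.9% rose and 27.8% fell. Pdia3, the disulfide isomerase of the peptide-loading complex, was at -1.20 ± 0.10 (adjusted p = 3.36e-06) and the cytosolic aminopeptidase gene Npepps at -1.20 ± 0.11 (adjusted p = 5.92e-06). The glucosyltransferase gene Uggt1 and the endosomal aminopeptidase gene Lnpep were at -0.65 ± 0.12 and -0.56 ± 0.13 (adjusted p = 0.000874 and 0.00452, edgeR). Of 5 tested genes of class II peptide processing 4 rose and 0 fell, beside the same shares of all tested genes. The cathepsin genes Ctsd and Ctsl rose by 0.85 ± 0.10 and 0.83 ± 0.14, the thiol reductase gene Ifi30 by 0.86 ± 0.14 and the legumain gene Lgmn by 0.43 ± 0.10 on the log2 scale (adjusted p from 3.58e-05 to 0.00358, edgeR). Ctss, the class II cathepsin of antigen-presenting cells, had 1 count in each group.

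Genes used as markers of other cell types differed between the groups to an uneven degree. Counts were given for 11 leukocyte markers; 4 were tested, of which 1 rose and 2 fell, and the summed level of the 11 was 17.7 to 20.5 CPM in wild type and 9.51 to 10.51 CPM in the knockout. The largest part of that sum was Cd68, which fell from 14.7 to 6.11 CPM. Cd3e fell from 1.44 to 0.392 CPM, and Itgam rose from 1.41 to 2.14 CPM. The pan-leukocyte marker Ptprc had 4 counts over wild type and 1 over the knockout, Itgax 1 and 0, and Emr1 0 and 1. Lyz2 and Ms4a1 each had 0 counts over wild type and 5 over the knockout, without overlap, and were not tested. Of 12 fibroblast markers 7 were tested and all 7 rose, where 27.9% of all tested genes rose and 27.8% fell. The summed level of the 12 was 7.86 to 8.92 CPM in wild type and 40.7 to 45.8 CPM in the knockout. The largest part was Tagln, at 21.7 CPM in the knockout. Also called higher were Acta2 (log2 4.65), Col6a2 (3.77), Col1a2 (3.11), Thy1 (1.92), Col1a1 (1.91) and Pdgfrb (0.99). Acta2, Col6a2 and Col1a2 lay below the filter cutoff in every wild-type library and could enter only by being high in the knockout. Lum was at 0, and Dcn, Postn, Col3a1 and S100a4 had 5, 5, 9 and 10 counts over the knockout and were not tested. All 4 epithelial markers rose too, with sums of 113 to 126 CPM in wild type and 207 to 261 CPM in the knockout. The part of these markers in the values above was not tested, and in bulk RNA more cells of a type and more RNA per cell cannot be told apart.

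In the authors' deposited table, 47 of the 63 members are listed, and 32 of them have an adjusted p below 0.05, as do 45.8% of all its genes with an adjusted p. All 30 members called in both analyses had the same sign. The authors' deposited table gives smaller values for the members with few counts, such as 4.33 for Psmb8 and 2.86 for H2-Aa, and nearly the same value for H2-K1, 2.45. In the authors' deposited table H2-T23 and H2-T10 were not called (adjusted p = 0.0587 and 0.108).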

How the data were processed

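RNA was sequenced from mouse embryonic stem cells, and the deposited table gives raw counts per gene symbol for 6 libraries. The submitters' processing notes name the build mm9, DESeq2, HTSeq 0.6.1 and TopHat2 2.0.10 without a role or an order. Strand, annotation and the treatment of reads shared by several genes: not given in the sources used here. Per the file headers, a second table by the authors gives for each gene the log2 fold change, the p-value with its adjusted form, the Wald statistic (a score) and a mean signal of scaled counts.

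Columns were matched to sample titles. The counts were fitted in edgeR 4.0.16 (R 4.3.3) by its two-sided quasi-likelihood test (TMM factors, filterByExpr defaults, a mean per group, no replicate block) across 14988 genes, with Benjamini-Hochberg adjustment and a threshold of 0.05. SE was taken as |log2 fold change| over the root of the F statistic. The test was run on simulated data before use. Total counts ran from 20107037 to 29267115 per library, so 3 counts correspond to 0.0945 to 0.150 CPM. Exact 95% intervals come from group sums and cover counting error only. The most alike libraries still differed beyond counting error, with a chi-square of 3.73 per degree of freedom. Exon length is the merged length in GENCODE M21 (GRCm38), known for 59 members; RefSeq gave the gene order, chromosomes and promoters, and 61 members matched it by symbol or older symbol. As the builds differ, no coordinates of the counted genes are given.

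The members and lists were chosen with earlier results of these data known. Named members were those whose mean reached 5 CPM in either group, 15 core genes of the pathway and the highest and lowest fold change among called members; any other was chosen after its values were seen. From each other list the called genes with the 4 smallest adjusted p were named. Alternatives were DESeq2 1.42.0 size factors or total counts, no filter or a mean of at least 1 CPM, the DESeq2 and limma-voom (limma 3.58.1) tests, a block for the replicate number, each library left out in turn, an adjusted p under 0.01 and a log2 minimum of 1. Removal of each library's trend on exon length was added after seeing the data.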

Additional observations from a re-analysis of the deposited data

How the results depend on the processing

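Of 40 tested members and 12 other named genes, 45 of 52 kept their direction and call under the 14 alternatives that changed the fit or the libraries; of 723 recomputed values, 22 lost a call, 10 gained one and 0 reversed. The members called higher stayed within 1.5 times 27, and the class II chains called lower at 0, under every alternative. Members called lower (5) were 2 with total counts and with an adjusted p under 0.01, 0 with a log2 minimum of 1, and 2 to 5 with single libraries left out (2 without wild-type replicate 1 or knockout replicate 2, 3 without wild-type replicate 2). Class I heavy chains called lower (4) were 2 with total counts and with an adjusted p under 0.01, 0 with a log2 minimum of 1, and 2 to 3 with libraries left out (2 without wild-type replicate 1 or knockout replicate 2). The log2 minimum left 3238 of 8345 calls over all genes, and leaving out single libraries gave 6986 to 9876. Total counts, which shift the median of all genes by 0.12 on the log2 scale, gave 1.94 for the ratio of summed class I chains and 6.36 for class II. With libraries left out the class II ratio ran from 5.33 to 6.36. The cause was not tested. With the replicate block Psmb10 was called lower (-0.49) and Psme2 higher (0.28), no other named call changed, and the calls over all genes went to 9352. Same-numbered libraries correlated in their deviations at 0.21, -0.03 and 0.20 over 14988 genes, so the numbers were not taken as pairs. Few counts limit the values of Psmb8, H2-Q2, H2-Aa and H2-Eb2 in wild type and of the untested H2-Oa, H2-Ob, H2-DMb2, Cd1d2, Ciita, H2-M2 and H2-M10 genes in both groups.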
